A study of Zea mays with 4 samples.

Results

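The mitochondrial genome genes of maize were taken as every counted feature whose identifier starts with Zeam, which gave 208 of 45953 features. Of these, 175 were listed as protein-coding or open reading frames (Zeam followed by Mp), 4 as ribosomal RNAs (Mr) and 29 as transfer RNAs (Mt). They were read in single-cell libraries of endosperm protoplasts, cells freed of their walls by enzymes, from kernels of the inbred line B73, the maize reference line. The groups were 7 days after pollination (DAP), with 3 replicate libraries, and 6 DAP, with 1 library. All 4 libraries came from wild-type plants, each from the pooled endosperm of many kernels. The labels name growth in a greenhouse, whereas the paper's reporting summary names a site in Beijing in summer and no greenhouse. The libraries were made with a kit that captures RNA at the 3′ end and counts each molecule by a unique molecular identifier (UMI).

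Plant mitochondria hold a large genome that encodes their own ribosomal RNAs, some transfer RNAs and ribosomal proteins, and a few subunits of the respiratory chain, while most of their proteins come from nuclear genes and are imported. The respiratory complexes encoded in part by this genome are complex I (nad genes), complex III (cob), complex IV (cox genes) and the ATP synthase (atp genes). In plant mitochondria a poly(A) tail generally marks an RNA for decay instead of stabilising it, so a kit that captures poly(A) RNA does not read the whole pool of these transcripts.

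The large ribosomal RNA rrn26 had the most UMIs of the 208 members, and the study designed an RNA in situ hybridisation probe for it. Its primers are shown because they mark the stretch of rrn26 that the probe covers. The reverse primer is given without the tail of 20 bases that it shared with most other reverse primers, and neither primer was placed on a genome here.
rrn26 probe, forward primer: caaaggtacgccggggataa
rrn26 probe, reverse primer: ggttggaaagttccattcgttt

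Few of the members carried most of the signal. A UMI was found for 148 of the 208 members, 102 had one in each of the 4 libraries, 28 had at least 1000 UMIs and 24 had only 1 to 3. Together they took 284768 UMIs, 0.27% of all UMIs. rrn26 alone held 32.9% of the members' UMIs, the first 3 members 63.7%, the first 10 held 81.5% and the first 20 held 91.1%. These ranks are of UMIs at the captured 3′ ends and are not levels per length.

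The members were ordered by their roles. The 4 ribosomal RNA features held 132873 UMIs, 46.7% of the members' total: rrn26 had 93773, the small-subunit RNA rrn18 had 38092, and rrn5 had 966. The feature rrn16-ct, the copy of a plastid ribosomal RNA gene, had 42. The 128 members grouped as open reading frames by their names held 71317 UMIs (25%), of which 49673 fell on 1 of them, orf99-d. The annotation places orf99-d between the transfer RNA genes trnF-ct and trnR-a, and trnR-a overlaps atp4, a subunit of the ATP synthase.

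Of the genes of energy metabolism, the 6 ATP synthase members held 22473 UMIs (7.89%), led by atp9, the ring subunit of the proton channel, with 13002, followed by atp6, another channel subunit, with 4642. The 3 members of complex IV, the terminal oxidase, held 16501 UMIs (5.79%), with 11403 for the catalytic subunit cox1 and 3847 for cox3. The 6 complex I members held 7564 (2.66%), with 2747 for nad4 and 2476 for nad3, and cob, the cytochrome b of complex III, had 2098. The 9 ribosomal proteins held 19751 (6.94%), led by rps1 with 8924. The 4 genes of cytochrome c maturation, which attach haem to cytochrome c, held 7392 (2.60%), of which ccmFN had 4691. The intron maturase mat-r, encoded inside an intron of a complex I gene, had 2205.

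Absence of counts was uneven over these groups. Of the 29 transfer RNAs, 28 had no UMI and trnS-a had 18. Of the 32 members named as a copy in a repeat of the genome, 31 had 0 UMIs and atp1-a1 had 5, whereas 29 of the 176 other members were at 0. The counting kept only reads that mapped to 1 place, so values of repeat copies are uncertain, as are those of features derived from the plastid genome. A further limit is that 50 members overlap another member, among them rrn18 with orf111-b and rps3 with rpl16.

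The 7 DAP libraries had 26756925, 36740377 and 33751416 UMIs over 5835, 5918 and 5274 barcodes, and the 6 DAP library had 8248575 UMIs over 4627 barcodes. The members' share of UMIs was 0.311%, 0.275% and 0.242% at 7 DAP and 0.225% at 6 DAP. The exact 95% binomial interval (Clopper-Pearson) was 0.222% to 0.229% at 6 DAP and narrower in the deeper 7 DAP libraries, and it covers counting error only. The 6 DAP value was below the 3 values of 7 DAP, whereas in cells kept by the study's filters the share was 0.227%, 0.199% and 0.172% at 7 DAP and 0.192% at 6 DAP, within the 7 DAP range. The 6 DAP value came from 1 library, so no test of age was possible.

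rrn26 had 1025, 912 and 806 CPM (UMIs of the gene, scaled to a common total of UMIs per library) at 7 DAP and 685 CPM at 6 DAP. orf99-d had 518, 496 and 433 CPM at 7 DAP and 364 CPM at 6 DAP. Both were higher in each 7 DAP library than at 6 DAP, as was rrn18, with 408, 373 and 326 CPM at 7 DAP and 302 CPM at 6 DAP. atp9 had 158, 114 and 97.9 CPM at 7 DAP and 155 CPM at 6 DAP, so the 6 DAP value fell within the 7 DAP range. In each of these 4 members replicate 1 was the highest and replicate 3 the lowest of the 7 DAP libraries.

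**Figure D1:**
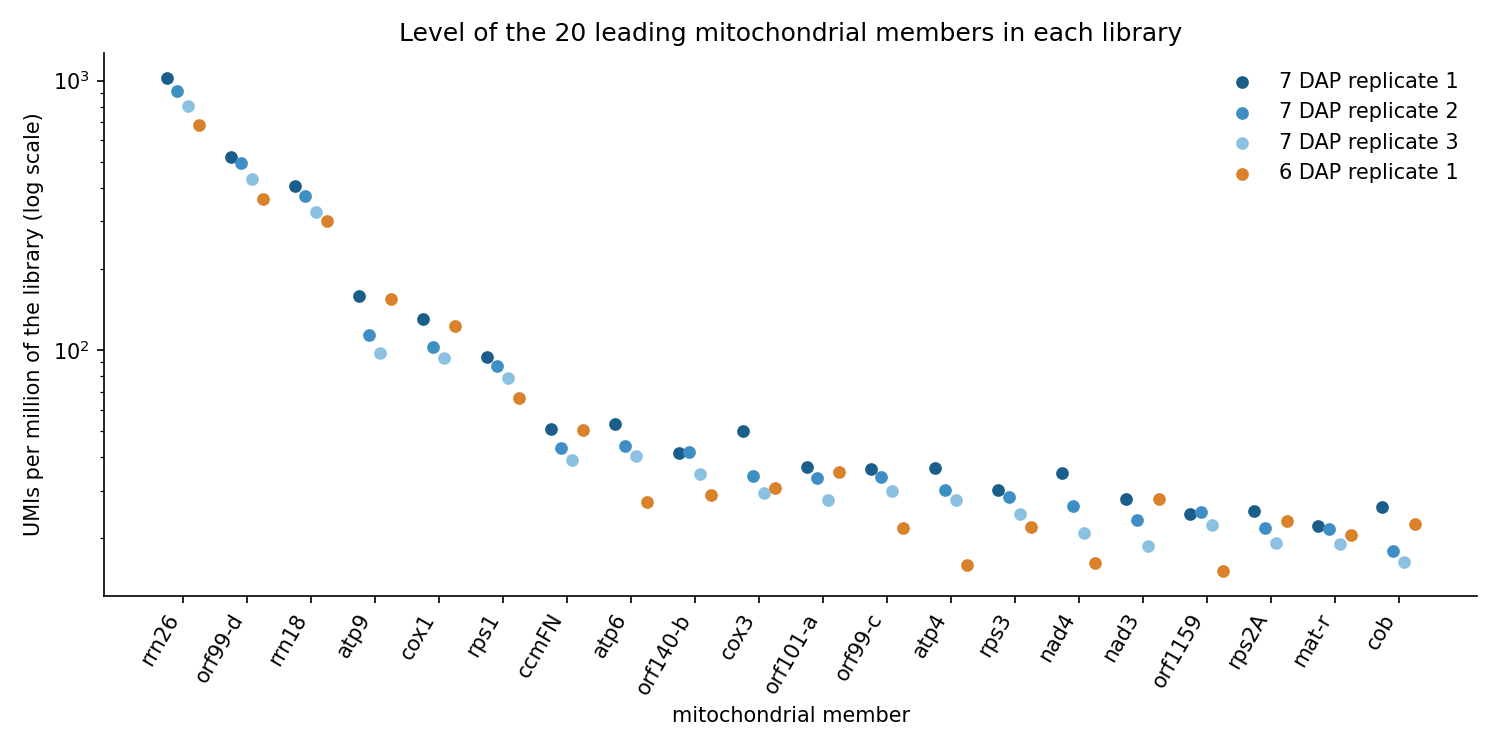
Level of the 20 mitochondrial members with the most UMIs, in CPM on a log axis, with 1 point per library (7 DAP replicates 1 to 3, then 6 DAP). rrn26 stands highest in every library, at 1025, 912 and 806 CPM at 7 DAP and 685 CPM at 6 DAP.

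The share depended on how many UMIs a barcode had. In barcodes of 500 to under 1000 UMIs the members took 4.01 ± 0.412% of UMIs at 7 DAP (SD, n = 3), in those of 1000 to under 2000 they took 1.49 ± 0.293%, in those of 2000 to under 4000 they took 0.426 ± 0.0593%, in those of 4000 to under 8000 they took 0.194 ± 0.0190%, in those of 8000 to under 16000 they took 0.0974 ± 0.00709%, and in those of at least 16000 they took 0.0588 ± 0.0130%. The share fell with each step of depth in each of the 3 libraries. The share in the shallowest bin was 52.4, 65.4 and 96.3 times that in the deepest in 7 DAP replicates 1, 2 and 3.

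At 6 DAP the same 6 bins had shares of 0.436%, 0.253%, 0.172%, 0.137%, 0.130% and 0.0641%, a ratio of 6.80 between the shallowest and the deepest. The last bins of the 6 DAP library held only 27 and 3 barcodes. Median UMIs per barcode were 1361 at 6 DAP and 3208, 4509 and 4489 at 7 DAP, so a bin holds different parts of the libraries. The mean of the 7 DAP shares was 9.20, 5.89, 2.48 and 1.41 times that of 6 DAP in the first 4 bins, and 0.750 and 0.919 times it in the last bins.

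In absolute terms, the mean number of mitochondrial UMIs per barcode at 7 DAP was 28.2 ± 2.56 in barcodes of 500 to under 1000 UMIs and 21.5 ± 4.21 in those of 1000 to under 2000. From 2000 UMIs upwards it was 12.7 ± 1.83, 11.2 ± 1.16, 10.8 ± 0.689 and 12.7 ± 2.51 in the 4 bins, so the deepest barcodes held fewer mitochondrial UMIs than the shallowest. At 6 DAP the means were 3.30, 3.61, 4.70, 7.17, 13.2 and 11.7 UMIs per barcode from the shallowest to the deepest bin. Over barcodes, the Spearman correlation between share and total UMIs was -0.637, -0.653 and -0.655 in the 5835, 5918 and 5274 barcodes of 7 DAP and -0.217 in the 4627 of 6 DAP. It is a description only, since the total is the denominator of the share and barcodes of 1 library share that library.

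**Figure D2:**
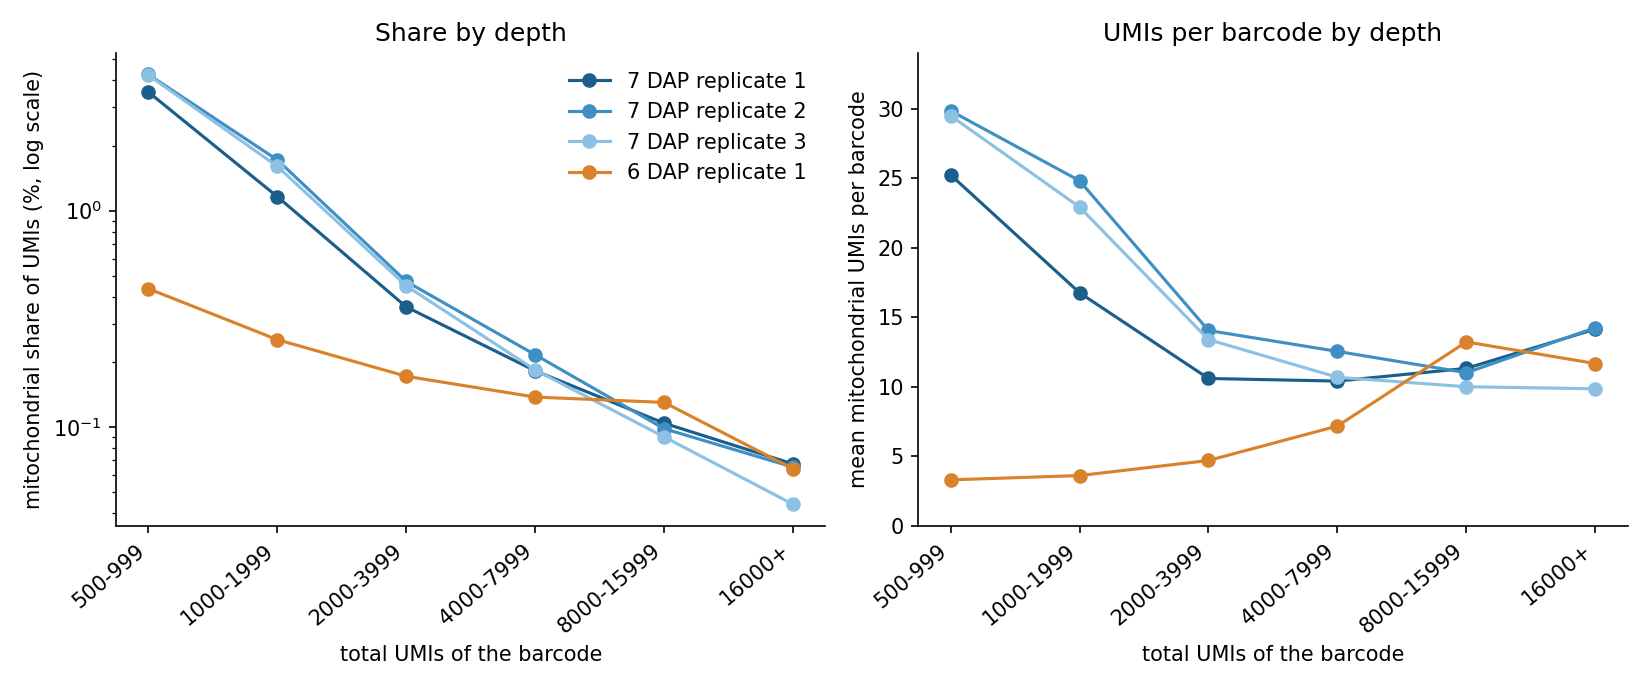
Left, mitochondrial share of UMIs in percent, on a log axis, against 6 bins of total UMIs per barcode, 1 line per library. Right, mean mitochondrial UMIs per barcode in the same bins. The 7 DAP libraries average 4.01% in the shallowest bin and 0.0588% in the deepest, against 0.436% and 0.0641% at 6 DAP.

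Single members were then compared between shallow kept cells (1000 to under 2000 UMIs) and deep kept cells (at least 8000 UMIs) of 7 DAP, where kept cells passed the study's filters on genes, UMIs and complexity, with UMIs summed per library and each library as a block. Clusters that the study removed later, among them its cells with high mitochondrial expression, were not removed. The replicates 1, 2 and 3 gave 995, 731 and 629 shallow cells and 952, 1602 and 1516 deep cells. Of the 208 members 59 passed the filter on low counts, and all 59 were higher in shallow cells by edgeR's quasi-likelihood test with Benjamini-Hochberg adjustment over 17280 genes, where 20% of all genes tested were higher. Of these, 26 passed the filter only through the shallow cells, which favours a difference in that direction. The other 33 passed it in each group on its own, with a median log2 fold change of 3.69 (range 2.83 to 4.26). None of the 59 was lower, also at an unadjusted p under 0.05 and with DESeq2, against 19.8% of all genes tested. The median log2 fold change was 3.67 over the 59 members (range 2.53 to 4.36) and 0.03 over all genes tested. Scaling by library totals moved the all-gene median to 0.59 and the members' median to 4.26.

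Among the ribosomal RNAs, rrn26 had 3984, 6038 and 5688 CPM in shallow cells and 256, 238 and 182 CPM in deep cells, a log2 fold change of 3.96 (SE 0.15, edgeR adjusted p = 3.47e-20). rrn18 had 1456, 2554 and 2211 CPM in shallow cells and 120, 112 and 88.8 CPM in deep cells, a log2 fold change of 3.69 (SE 0.14). The lowest shallow sum of either was more than the highest deep sum. orf99-d had 1751, 2783 and 2525 CPM in shallow cells and 207, 190 and 165 CPM in deep cells, a log2 fold change of 3.06 (SE 0.13, edgeR adjusted p = 1.49e-18). The 8 open reading frames that passed the filter in each group were higher, with a median log2 fold change of 3.46. The fitted values of orf101-b, 4.36 (SE 0.40), and orf191, 4.23 (SE 0.46), were among the 3 largest, but both passed the filter only through the shallow cells.

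Subunits of the respiratory chain and the ATP synthase moved the same way. nad4 of complex I had 140, 173 and 159 CPM in shallow cells and 6.93, 5.56 and 4.44 CPM in deep cells, a log2 fold change of 4.26 (SE 0.13), the largest among the members that passed in each group, where all 4 complex I members were higher. cox1 had 512, 588 and 567 CPM in shallow cells and 41.4, 34.3 and 31.3 CPM in deep cells, a log2 fold change of 3.40 (SE 0.11), with all 3 complex IV members higher. atp9 had 570, 641 and 589 CPM in shallow cells and 67.1, 44.9 and 39.2 CPM in deep cells, a log2 fold change of 3.04 (SE 0.12), with all 4 ATP synthase members that passed in each group higher. The groups did not overlap for any of these genes. The 6 ribosomal proteins that passed in each group were higher too, and rps1 had 359, 499 and 462 CPM in shallow cells and 37.9, 30.5 and 29.8 CPM in deep cells, a log2 fold change of 3.18 (SE 0.11).

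The nuclear partners of these subunits did not follow. Of 31 nuclear genes of oxidative phosphorylation, a list that the study compiled and that is not independent of these samples, 31 were lower in shallow cells. Their median log2 fold change was -0.88 under edgeR's TMM scaling. With library totals 20 were lower, 3 were higher and the median was -0.31. In that fit 1123 of all 17280 genes tested were lower and 9207 were higher, with a median of 0.59. Genes of the plastid genome went with the mitochondrial ones: all 40 tested were higher in shallow cells, with a median log2 fold change of 3.64.

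Cell kinds also moved with depth. At 7 DAP, FL3, a marker gene of starchy endosperm, had 487, 415 and 546 CPM of nuclear UMIs in barcodes of 1000 to under 2000 UMIs and 43.4, 50.4 and 37.5 in those of at least 16000. The summed check markers of the aleurone (SBT1, VPP7 and Zm00001d024210) had 490, 505 and 553 CPM in the shallower barcodes and 523, 474 and 496 in the deeper, so the summed ranges overlapped. Singly they moved in opposite directions between kept cells of 1000 to under 2000 UMIs and those of at least 8000. SBT1 had 274 to 325 CPM in the shallow and 401 to 431 in the deep cells. VPP7 had 169 to 220 CPM in the shallow and 138 to 151 in the deep, and Zm00001d024210 had 0 in both. AL9, the aleurone marker used for the classes, had 31262, 21393 and 22075 CPM in barcodes of 1000 to under 2000 UMIs, 50960, 50469 and 48338 in those of 4000 to under 8000 and 37189, 35142 and 36080 in those of at least 16000, so it was highest between. The summed markers of the embryo-surrounding region had 1191, 916 and 884 CPM in the shallower barcodes, against 16529, 8455 and 11340 in the deeper. HSP26, a heat-shock protein gene listed for the response to stimulus, had 119, 127 and 144 CPM in the shallower barcodes and 41.6, 29.1 and 27.8 in the deeper. The part of these markers in the result over all cells was not tested. Within AL9-marker cells alone 37 of the 37 members tested were higher in shallow cells, with a median log2 fold change of 3.56, against 2.17% of all genes tested, and 0 were lower, against 6.89%. Within FL3-marker cells alone 31 of 31 were, with a median of 3.01, against 7.12% of all genes tested, and 0 were lower, against 8.23%. How many of these passed the filter only through the shallow cells was not counted.

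The make-up of the mitochondrial UMIs changed less than their amount. At 7 DAP the ribosomal RNAs held 48.4%, 48.8%, 48.9%, 46.8%, 40.8% and 37.9% of them from the shallowest to the deepest bin (means of 3 libraries). Over the 33 members that passed the filter in each group, the median log2 fold change in shallow against deep cells was 3.46 for 8 open reading frames, 3.63 for 6 ribosomal proteins, 3.69 for 3 ribosomal RNAs, 3.70 for 3 members of complex IV, 3.84 for 4 of the ATP synthase and 3.86 for 4 of complex I.

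A small set of 7 DAP barcodes had a high mitochondrial share. A share of at least 10% was found in 84 of 5835, 137 of 5918 and 121 of 5274 barcodes of 7 DAP (1.44%, 2.31% and 2.29%) and in 0 of 4627 barcodes of 6 DAP, which allows a share of up to 0.0648%. All of these barcodes had fewer than 2000 UMIs, and 7, 18 and 20 of them passed the study's filters on genes, UMIs and complexity. The study then removed clusters it assigned to embryo, nucellus, response to stimulus and cells with high mitochondrial expression. Those clusters were not removed here. The barcodes with a share of at least 10% held 12.7%, 17.3% and 18.7% of the members' UMIs in the 3 libraries. At a threshold of 5% the counts were 249, 344 and 304 at 7 DAP and 3 at 6 DAP. The highest share in a barcode was 50.3%, 62.8% and 65.2% at 7 DAP and 7.90% at 6 DAP.

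Marker classes were set apart among kept cells by 1 marker gene each, without using mitochondrial UMIs. AL9 (Zm00001d012572) marks the aleurone, the outer layer of the endosperm, BETL9 (Zm00001d041822) marks the basal transfer layer, which takes up nutrients from the mother plant, and FL3 (Zm00001d009292) marks the starchy endosperm, the storage tissue. A cell was placed in a class if that gene alone had at least 2 UMIs and at least its library's share of nuclear UMIs. The classes held 1403, 1451 and 1348 AL9-marker cells, 392, 376 and 360 BETL9-marker cells and 605, 616 and 575 FL3-marker cells in the 7 DAP libraries.

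Other markers of each kind were checked against these names, and the study took some of them from these same cells. At 7 DAP the aleurone gene SBT1 averaged 767 CPM of nuclear UMIs in AL9-marker cells, against 62.2 in BETL9-marker and 35.3 in FL3-marker cells. The established aleurone marker VPP7 averaged 258 CPM in AL9-marker cells, against 12.0 in BETL9-marker and 67.2 in FL3-marker cells. A further aleurone marker on the list, Zm00001d024210, was at 0 UMIs in all classes and libraries. SBT1 and Zm00001d024210 were chosen by the study as representative of its clusters of these cells. The transfer-layer regulator MRP1 averaged 239 CPM in BETL9-marker cells, against 5.03 in AL9-marker and 5.52 in FL3-marker cells. TAR1, listed for starchy endosperm, averaged 1244 CPM in FL3-marker cells, against 233 in AL9-marker and 67.4 in BETL9-marker cells. FL3-marker cells also had ESR2, listed for the embryo-surrounding region, at 529 CPM on average, with 60.8 to 805 over the 3 libraries. ESR2 averaged 30.5 CPM in AL9-marker and 8.51 in BETL9-marker cells. FL3-marker cells are therefore called by their marker gene here. AL9 itself averaged 106653 CPM in AL9-marker cells, against 6520 in BETL9-marker and 6313 in FL3-marker cells.

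FL3-marker cells had the highest mitochondrial share at 7 DAP. The share was 0.129%, 0.108% and 0.0861% in AL9-marker cells, 0.114%, 0.0738% and 0.0694% in BETL9-marker cells and 0.409%, 0.363% and 0.364% in FL3-marker cells. The FL3-marker values did not overlap those of the other classes, which overlapped each other. Within each 7 DAP library the AL9-marker share was nevertheless above the BETL9-marker share. In the 6 DAP library the order of the classes was the same, with 0.161% in AL9-marker, 0.121% in BETL9-marker and 0.219% in FL3-marker cells. The classes differed in depth as well, with median UMIs per cell at 7 DAP of 4692, 6649 and 6908.5 for AL9, 6807, 9590.5 and 11261.5 for BETL9 and 3440, 4931 and 4330 for FL3. The ribosomal RNAs held 42.3 ± 0.318% of the mitochondrial UMIs in AL9-marker, 40.6 ± 1.88% in BETL9-marker and 53.5 ± 0.881% in FL3-marker cells of 7 DAP (SD, n = 3).

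Cells were also thinned to 1000 UMIs each. This evens the UMIs per cell but keeps, on average, the share that goes with a cell's original depth. A mitochondrial UMI was then found in 53.8%, 47.8% and 44.5% of AL9-marker cells, 56.1%, 44.4% and 42.8% of BETL9-marker cells and 81.5%, 77.4% and 76.0% of FL3-marker cells of 7 DAP. Before thinning, the values were 85.0%, 87.6% and 86.3% for AL9, 88.0%, 92.3% and 90.6% for BETL9 and 95.4%, 95.5% and 92.9% for FL3. Every cell type has mitochondria, so no class lacks these genes as a measure of free RNA, and the part of free RNA in these shares was not tested.

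Within bins of depth, the FL3-marker cells had the highest mean share of the marker classes at 7 DAP, although in replicate 3 the share in cells of 2000 to under 4000 UMIs was 0.518% in BETL9-marker and 0.481% in FL3-marker cells. In cells of 4000 to under 8000 UMIs the mean shares at 7 DAP were 0.104% in AL9-marker, 0.140% in BETL9-marker and 0.364% in FL3-marker cells. The share in AL9-marker cells was 0.268, 0.320 and 0.270 times that in FL3-marker cells of the same library, and the share in BETL9-marker cells was 0.341, 0.357 and 0.457 times it. In the same bin of the 6 DAP library the shares were 0.135% in AL9-marker, 0.112% in BETL9-marker and 0.121% in FL3-marker cells, so FL3-marker cells were not the highest there. The order of AL9-marker and BETL9-marker cells at 7 DAP varied with depth. The ratio of their shares was 0.953, 1.31 and 1.23 in cells of 1000 to under 2000 UMIs and 0.688, 1.18 and 0.467 in those of 2000 to under 4000, where the libraries differed in direction. It was 0.786, 0.897 and 0.589 in cells of 4000 to under 8000 UMIs, and 1.25, 1.11 and 1.12 in cells of 8000 to under 16000.

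**Figure D3:**
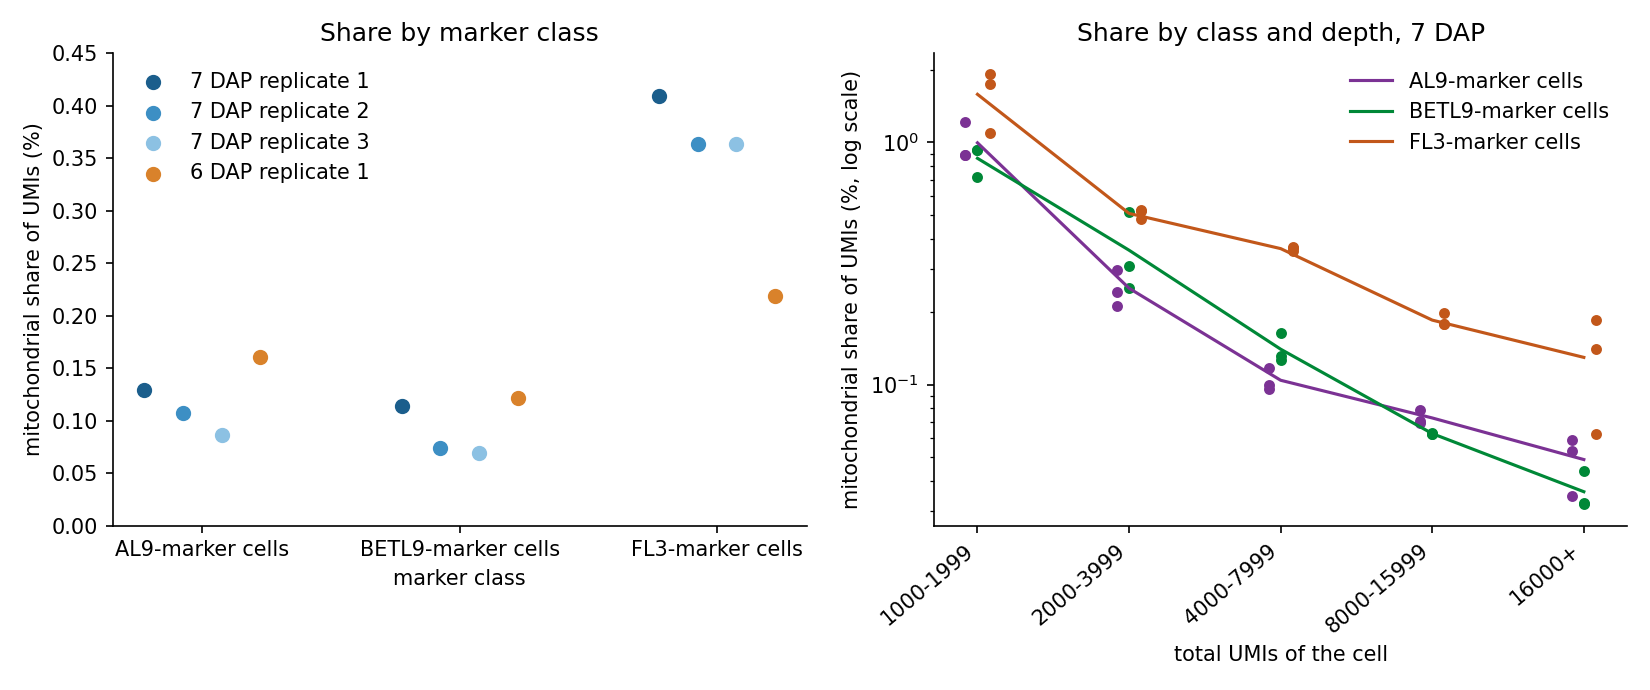
Left, mitochondrial share of UMIs in percent by marker class and library. Right, the share by class in bins of total UMIs per cell at 7 DAP, with points for libraries and lines for their means. At 7 DAP the FL3-marker cells have 0.363% to 0.409%, above the 0.0694% to 0.129% of the other classes.

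In AL9-marker against FL3-marker cells of 7 DAP, 43 of the 208 members passed the filter on low counts among 16050 genes tested. edgeR called 42 of them lower in AL9-marker cells and 0 higher (0 at an unadjusted p under 0.05 and 0 with DESeq2), against 30.7% and 30.3% of all genes tested. Of the 43, 14 passed the filter only through FL3-marker cells, which favours a difference in that direction, and the 29 that passed it in each class on its own were all lower, with a median log2 fold change of -1.05. The 43 members' median log2 fold change was -1.10, against -0.02 over all genes tested, and with library totals -1.62 against -0.53.

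rrn26 had 398, 328 and 262 CPM in AL9-marker cells and 1597, 1423 and 1379 CPM in FL3-marker cells, a log2 fold change of -1.66 (SE 0.07, edgeR adjusted p = 1.31e-18). orf99-d had 239, 219 and 185 CPM in AL9-marker cells and 653, 611 and 618 CPM in FL3-marker cells, a log2 fold change of -1.05 (SE 0.07). cox1 had 60.6, 45.4 and 37.5 CPM in AL9-marker cells and 153, 119 and 109 CPM in FL3-marker cells, a log2 fold change of -0.90 (SE 0.07). None of these overlapped between the classes. atp9 fell by 0.74 on the log2 scale (SE 0.08) and rps1 by 0.47 (SE 0.10).

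By role, and over the 29 members that passed the filter in each class, the median log2 fold change was -1.65 for 2 ribosomal RNAs, -1.26 for 3 members of complex I, -1.19 for 6 open reading frames, -1.15 for 3 members of complex IV, -0.98 for 4 of the ATP synthase, -0.87 for 6 ribosomal proteins and -0.70 for 2 of cytochrome c maturation. Of the 43, nad4L, named after its value was seen, was the 1 not called. The fitted values farthest below 0, -2.01 for orf101-b, -1.85 for orf261 and -1.84 for rrn5, belonged to members that passed only through FL3-marker cells.

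In BETL9-marker against FL3-marker cells, 41 of the same 43 members were lower and 0 higher (0 at an unadjusted p under 0.05 and 0 with DESeq2), where 30.8% of all genes tested were lower and 30.1% higher. The members' median log2 fold change was -1.21, against -0.05 over all genes tested, and with library totals -1.99 against -0.84. In this contrast 17 members passed the filter only through FL3-marker cells, and of the 26 that passed it in each class 25 were lower. rrn26 had 318, 229 and 187 CPM in BETL9-marker cells and 1597, 1423 and 1379 CPM in FL3-marker cells, a log2 fold change of -1.83 (SE 0.07). nad4 had a log2 fold change of -1.89, and orf261, which passed the filter only through FL3-marker cells, had -2.91.

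Fewer members were called in this contrast within a window of depth, which also held fewer BETL9-marker cells (184, 127 and 90 in replicates 1, 2 and 3). The fits in the window used TMM scaling only, and unscaled shares by depth are given above. In cells of 2000 to under 8000 UMIs 9 of 38 members were lower in BETL9-marker cells, where 17.3% of all genes tested were, and 1, rps1, was higher with a log2 fold change of 0.71, where 20.6% of all genes were, whereas over all kept cells rps1 had -0.26 (edgeR adjusted p = 0.0677). In the same window 31 of 38 members were lower in AL9-marker than in FL3-marker cells and 0 were higher, where 27.9% of all genes tested were lower and 28.2% higher.

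Fewer members were called between AL9-marker and BETL9-marker cells. Over all kept cells edgeR called 5 of 43 members higher in AL9-marker cells and 0 lower (1 at an unadjusted p under 0.05 and 0 with DESeq2), against 29.4% and 29.3% of all genes tested, and DESeq2 called 1 higher. With library totals 13 were higher, as the median of all genes tested moved to 0.29. The 5 were rps12 with a log2 fold change of 0.70, ccmC with 0.68, nad4 with 0.63, nad3 with 0.57 and rrn26 with 0.16. Of the 43, 26 passed the filter in each class and 4 of these were higher, 3 passed only through AL9-marker cells, among them ccmC, and 14 passed in neither class on its own. In cells of 2000 to under 8000 UMIs 0 of 38 members were higher and 9 were lower, where 18.9% of all genes tested were higher and 18.8% lower, and rrn26 had -0.48. The 5 calls over all kept cells became 6 without replicate 1, 1 without replicate 2 and 2 without replicate 3, and 4 members were lower without replicate 2. The share of all genes called in those fits, and with library totals, is not given here.

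In AL9-marker against FL3-marker cells, the nuclear oxidative phosphorylation genes differed in another direction than the mitochondrial ones. In BETL9-marker against FL3-marker cells their direction depended on the scaling. The list was compiled by the study, which reported terms of cellular respiration enriched in some aleurone clusters of these cells. It is therefore not independent of these samples, and its values here are a description only. All 31 were higher in AL9-marker than in FL3-marker cells, with a median log2 fold change of 1.47, and with library totals 31 were still higher with a median of 0.96. In BETL9-marker against FL3-marker cells 28 were higher and 1 lower with a median of 0.67. With library totals 7 were higher, 15 were lower and the median was -0.12, against -0.84 over all genes tested. The share of all genes called in that fit is not given here. Their summed level was 8475, 8731 and 8496 CPM of nuclear UMIs in BETL9-marker cells of 7 DAP replicates 1, 2 and 3. In FL3-marker cells it was 8789, 8967 and 8684 CPM. In AL9-marker against BETL9-marker cells 30 were higher, with a median of 0.66. Of 22 plastid genes tested 20 were lower in AL9-marker and 19 in BETL9-marker than in FL3-marker cells.

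**Figure D4:**
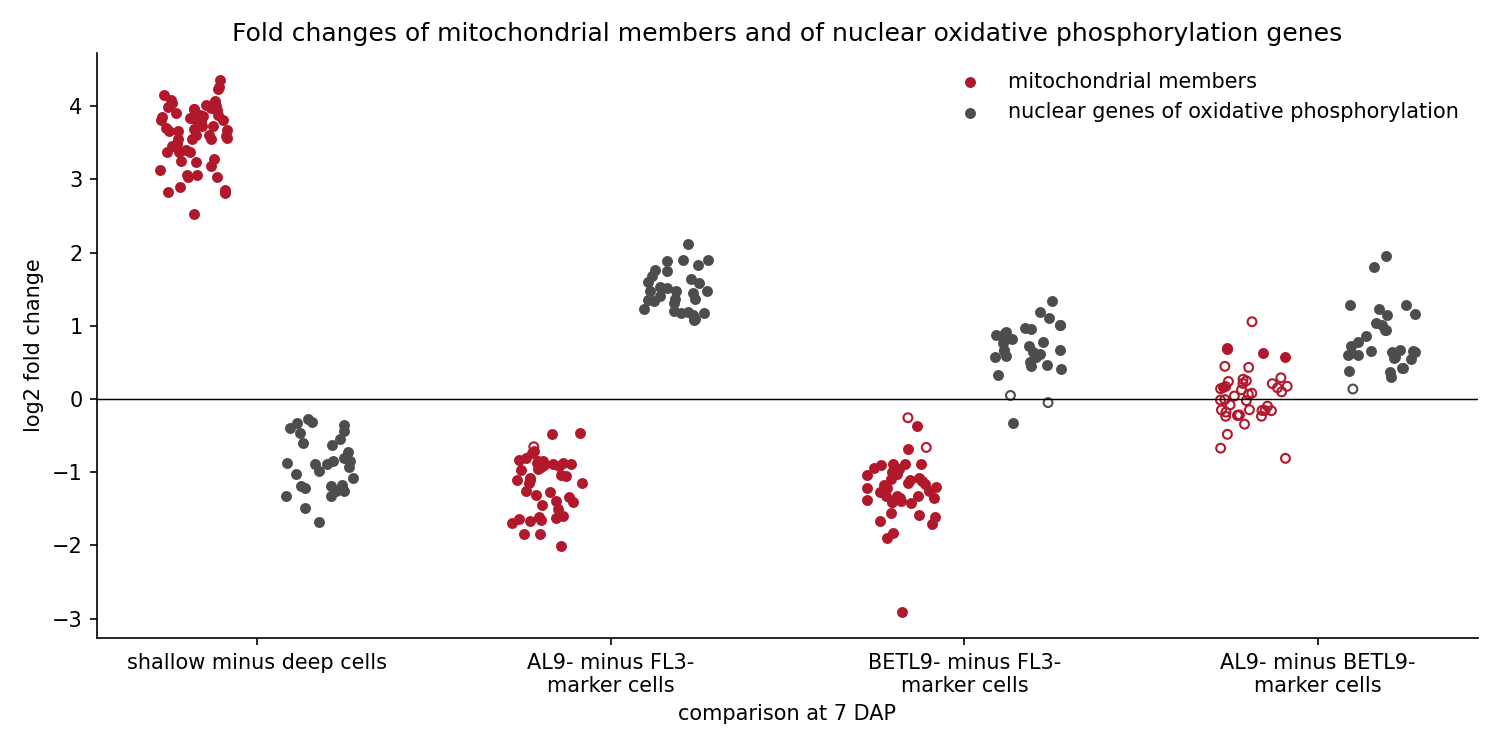
Log2 fold changes of mitochondrial members (red) and nuclear oxidative phosphorylation genes (grey) in the 4 comparisons at 7 DAP, where filled points have an edgeR adjusted p under 0.05 and open points do not. The members' median is 3.67 in shallow against deep cells and -1.10 in AL9-marker against FL3-marker cells, and that of the nuclear genes is -0.88 and 1.47. The nuclear list came from the study and is not independent of these samples.

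Between ages, members were compared by size only. Of the 28 members with a mean of at least 10 CPM, 1 had 2 times or more the 6 DAP level in each 7 DAP library, where 1.33% of 9866 genes did, and 0 were at or under 1/2 of it, where 0.892% of genes were. That member was rps7, a protein of the small ribosomal subunit, with 17.8, 16.4 and 14.3 CPM at 7 DAP and 6.06 CPM at 6 DAP. In 19 of the 28 members the 3 libraries of 7 DAP were all above 6 DAP, and in 0 all below, against 29.3% and 57.9% of genes with that mean. The ratio of the 7 DAP mean to 6 DAP had a median of 1.33 over the 28 members and ranged between 0.798 for atp9 and 2.67 for rps7, against a median of 0.895 over all genes. Without replicate 3 the members past the rule numbered 2.

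Age and depth cannot be told apart in this comparison, since the 6 DAP library was shallower. In barcodes of 1000 to under 2000 UMIs all 44 members with that mean passed the size rule with 7 DAP higher, against 6.94% of genes, and a member could reach that mean through the 7 DAP libraries alone. There rrn26 had 3984, 6038 and 5688 CPM in kept cells of 7 DAP and 799 CPM at 6 DAP. In barcodes of at least 2000 UMIs the members' share was 0.169%, 0.151% and 0.130% at 7 DAP and 0.158% at 6 DAP, so the 6 DAP value lay within the 7 DAP range.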

How the data were processed

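The deposited UMI counts per gene and barcode were made by the authors with Cell Ranger 4.0.0, per the file headers, which counts uniquely mapped reads, and no library of the 4 was normalized. The submitters' processing notes also name Seurat. The members and gene lists were chosen with earlier results of these data known. Gene names, roles and neighbours came from RefSeq by locus tag (208 of 208 matched), with no coordinates since its build differs. Kept cells passed the study's filters of 500 to 7500 genes, at least 1000 UMIs and a complexity of at least 0.8, read here as log genes over log UMIs since the log of genes over UMIs, as the methods write it, is never above 0; doublets were not removed, and barcodes shared by 2 libraries numbered 4 to 8 a pair. UMIs were summed per library and group and tested in R 4.3.3 with edgeR 4.0.16 (glmQLFit, TMM, filterByExpr, library as a block, Benjamini-Hochberg over all genes, threshold 0.05), with DESeq2 1.42.0 as an alternative. Clusters that the study removed after its clustering were not removed here. The scripts were tested on simulated data. Pooled kernels make each library 1 replicate, so p-values measure only the spread between these libraries. Named genes were the 20 members with the most UMIs (at least 1000), the ribosomal RNAs, members named in the study's lists, and up to 3 called members with the largest change each way per contrast. UMI intervals cover counting error only.
The library block pairs cell groups of the same library by construction. Alternatives were other tools, scalings, filters, depth windows, marker thresholds, cells and each replicate left out.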

Additional observations from a re-analysis of the deposited data

Results flagged for a closer look

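The ratio of the mean 7 DAP share to the 6 DAP share changed direction with depth. The mean of 7 DAP was 9.20 times the 6 DAP share in barcodes of 500 to under 1000 UMIs, 5.89 times it in those of 1000 to under 2000, 2.48 times it in those of 2000 to under 4000 and 1.41 times it in those of 4000 to under 8000. In barcodes of 8000 to under 16000 UMIs it was 0.750 times the 6 DAP share, where the 6 DAP library had 27 barcodes. In these bins each 7 DAP library lay on that side of the 6 DAP value. Median UMIs per barcode were 1361 at 6 DAP and 3208, 4509 and 4489 at 7 DAP. The same bin therefore holds different parts of the libraries, and age and depth cannot be told apart. The difference between bins was not tested.

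The mitochondrial share of AL9-marker cells over that of BETL9-marker cells also differed in direction between bins. In cells of 1000 to under 2000 UMIs it was 0.953, 1.31 and 1.23 in 7 DAP replicates 1, 2 and 3, and in those of 2000 to under 4000 it was 0.688, 1.18 and 0.467, so the libraries differed there. In cells of 4000 to under 8000 UMIs the ratio was 0.786, 0.897 and 0.589. In cells of 8000 to under 16000 UMIs it was 1.25, 1.11 and 1.12, and in cells of at least 16000 UMIs it was 1.22, 1.82 and 1.08. This difference was not tested.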

How the results depend on the processing

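In the alternatives run, members that passed the main filter kept their direction for shallow against deep cells and for AL9-marker against FL3-marker cells. With no filter on low counts, 119 of 131 members had a positive log2 fold change in shallow against deep cells. Alternatives with FL3-marker cells only, cells of 4000 to under 8000 UMIs, barcodes of at least 2000 UMIs or without orf99-d were chosen after seeing the data. For the single genes named, 339 values kept direction and call, 34 lost the call, 5 gained it and 6 changed sign. The cause of any change was not tested.

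The share at 7 DAP moved to 0.227%, 0.199% and 0.172% in kept cells, against 0.192% at 6 DAP, to 0.167%, 0.146% and 0.128% without the ribosomal RNAs, against 0.126% at 6 DAP, to a median over barcodes of 0.203%, 0.158% and 0.140%, against 0.152% at 6 DAP, and to 0.259%, 0.226% and 0.199% without orf99-d, against 0.189% at 6 DAP. The share at 6 DAP minus the mean of 7 DAP was -0.0508 percentage points over all barcodes, -0.00718 in kept cells, -0.970 with 7 DAP bins weighted as at 6 DAP, -1.24 in barcodes of 1000 to under 2000 UMIs and 0.00784 in those of at least 2000, and between -0.0679 and -0.0334 without each replicate. Members past the size rule at 7 DAP numbered 2 with TMM factors (185 of 9870 genes) and 2 with a mean of at least 1 CPM (462 of 18171). They numbered 0 in kept cells (132 of 9818 genes) and 44 in barcodes of 1000 to under 2000 UMIs (780 of 11240). Without each replicate they numbered 1 to 2 (162 of 9849, 131 of 9916 and 132 of 9933 genes without replicates 1, 2 and 3).

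For shallow against deep cells 37 members were higher in AL9-marker cells only and 31 in FL3-marker cells only. For BETL9-marker against FL3-marker cells, 1 was higher and 9 lower in cells of 2000 to under 8000 UMIs, and 1 and 7 in cells of 4000 to under 8000. There rps1 changed to 0.71 and 0.64, and atp9 to 0.0095 in cells of 2000 to under 8000 UMIs. For AL9-marker against BETL9-marker cells, members higher numbered 1 with DESeq2, 13 with library totals, 13 with nuclear totals, 2 with no replicate block, 0 with the marker at 1 UMI, 0 and 0 in the windows, 3 in all barcodes and 1 to 6 without each replicate. Members lower there numbered 2 with the stricter marker rule, 5 with the marker at 1 UMI, 9 and 6 in the windows, 1 in all barcodes and 0 to 4 without each replicate. rrn26 changed to -0.093 with the marker at 1 UMI and to -0.48 and -0.55 in the windows. Except where given above, the share of all genes called under the same alternative is not shown. These counts are therefore not read as a result about the members.

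Without the replicate block the calls were 59 higher for shallow against deep cells, 42 lower for AL9-marker and 39 lower for BETL9-marker against FL3-marker cells, and 2 higher for AL9-marker against BETL9-marker cells. Of all genes tested for shallow against deep cells in that fit, 3552 of 17280 were higher. The share of all genes in the class contrasts without the block is not given here. No paired analysis was possible because 6 DAP has 1 library for the comparison of ages.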

Other observations

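Cells with none of the 3 markers had mitochondrial shares of 0.285%, 0.268% and 0.241% at 7 DAP and 0.224% at 6 DAP. A barcode without any mitochondrial UMI was seen in 8.65%, 7.60% and 8.44% of barcodes at 7 DAP and 18.3% at 6 DAP, with a median of 7, 7 and 7 mitochondrial UMIs per barcode at 7 DAP and 2 at 6 DAP. The share of UMIs on plastid genes was 0.0334%, 0.0291% and 0.0249% at 7 DAP and 0.0191% at 6 DAP.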
